A study of Mus musculus with 10 samples.

Results

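The genes Cd52, Srgn, Sla, Rgs1 and Gpr65 are a small set of leukocyte signaling and granule genes. They were found by gene name in the 2 tables of selected genes that the authors deposited, and each name led to 1 probeset, which was then read on all 10 arrays. They are 5 of the 251 probesets that those tables name and of the 35556 in the value table. All 5 stand in the tumor cell table and none in the macrophage table, so they were chosen on the genotype difference in tumor cells, and that difference is given below as a description with no test. The tables name 15 of a list of 28 macrophage markers, which were 3.42 (Lyz2) to 5.67 (Csf1r) log2 units higher in the macrophages than in the tumor cells. They name 0 of 13 epithelial markers, so the identity of the sorted tumor cells was not checked.

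The arrays measured mouse cells sorted by flow cytometry from mammary fat pad tumors on day 10 after injection of 100000 cells of PyMT-BO1-GFP-Luc, a murine mammary tumor line marked with green fluorescent protein and luciferase. Hosts were either wild-type (WT) mice or b3KOM mice, which lack integrin beta3 in cells of the macrophage lineage. CD206hi tumor-associated macrophages (TAMs) were measured on 3 arrays per host genotype and tumor cells on 2 arrays per host genotype. The injected line was the same in every host, so the genotype is that of the host. The agent that drives the deletion, the strain and age of the mice, and the number of mice behind an array were not stated in the labels, so p-values measure only the spread between these samples, which may be technical. The unit throughout is the log2 value made by the authors with RMA, a method that corrects background, equalises the distributions of the arrays and gives 1 value per probeset.

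Leukocytes share a set of signaling and secretory genes that most other cells use little. Serglycin, the product of Srgn, is the core protein to which glycosaminoglycan chains are attached in secretory granules, where it holds proteases and chemokines. Cd52 encodes a very short glycoprotein held in the membrane by a lipid anchor, and its human counterpart is the target of the antibody alemtuzumab. Sla encodes the Src-like adaptor protein, which damps signaling from antigen receptors in lymphocytes. Rgs1 encodes a regulator of G protein signaling that shortens the response to chemokine receptors, and Gpr65 encodes a receptor that senses extracellular protons and raises cyclic AMP.

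The windows around the start sites of Srgn and Gpr65 are shown because both genes were far higher in TAMs than in tumor cells and have entries in the RefSeq promoter table used here (build GRCm38.p6). Each runs 5′ to 3′ on the strand of the gene, from 250 bases before the start to 50 bases after it. Capitals mark matches on either strand to GAGGAA, an ETS-type core of the kind bound by the myeloid factor PU.1, to TGACTCA, the AP-1 motif, or to TATAAA, the TATA box. The Gpr65 window lies at chr12:98268385-98268684 on the plus strand and the Srgn window at chr10:62527396-62527695 on the minus strand.
Gpr65: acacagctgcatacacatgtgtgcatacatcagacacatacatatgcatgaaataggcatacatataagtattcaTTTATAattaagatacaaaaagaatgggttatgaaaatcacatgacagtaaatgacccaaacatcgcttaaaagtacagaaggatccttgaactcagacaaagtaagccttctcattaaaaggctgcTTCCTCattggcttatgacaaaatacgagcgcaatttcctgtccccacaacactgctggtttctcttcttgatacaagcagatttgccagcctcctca
Srgn: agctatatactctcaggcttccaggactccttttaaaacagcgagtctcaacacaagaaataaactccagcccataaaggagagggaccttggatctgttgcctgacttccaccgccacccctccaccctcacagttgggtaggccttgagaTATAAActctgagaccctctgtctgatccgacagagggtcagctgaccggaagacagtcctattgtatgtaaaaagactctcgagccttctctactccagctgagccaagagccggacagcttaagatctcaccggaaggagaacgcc
In the Gpr65 window the PU.1-type core was found on the opposite strand at bases -48 to -43 from the start, and a TATAAA match on the opposite strand at -175 to -170. The Srgn window held a TATAAA match on the gene's own strand at -98 to -93. A second listed start of Srgn, at chr10:62507708-62508007 on the minus strand, held none of the 3 motifs. GAGGAA occurred in 28.3% of the 32851 windows of this length in the table, TATAAA in 13.6% and TGACTCA in 5.2%, so such matches are common, and none of the matches overlapped another. A match describes the letters only.

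The first comparison asks in which sorted population the genes are found, a difference the authors' tables were not chosen on. Srgn, Cd52 and Rgs1, which lay above the median of the value table on every array, rose in TAMs over tumor cells by 20.0-fold, 21.8-fold and 33.9-fold. Gpr65 rose too, and Sla was also far brighter in TAMs, but in tumor cells from WT hosts both lay below that median, so no exact fold is given for them. The lowest TAM array stood above the highest tumor cell array for each gene, with a gap of at least 3.79 log2 units. In limma, Srgn, Cd52, Rgs1 and Gpr65 passed, with adjusted p from 3.88e-10 to 8.55e-09, beside 24.9% of the 20246 probesets tested that were called higher in TAMs and 20.8% whose TAM arrays all lay above the tumor cell arrays. The calls were 5050 higher and 8333 lower, or 6778 and 6307 with cyclic loess scaling, which left the calls of these 4 genes in place. Sla entered that test only through its TAM values and is not counted among the calls. Tested with no filter on dim probesets it had a limma adjusted p of 9.61e-10.

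**Figure D1:**
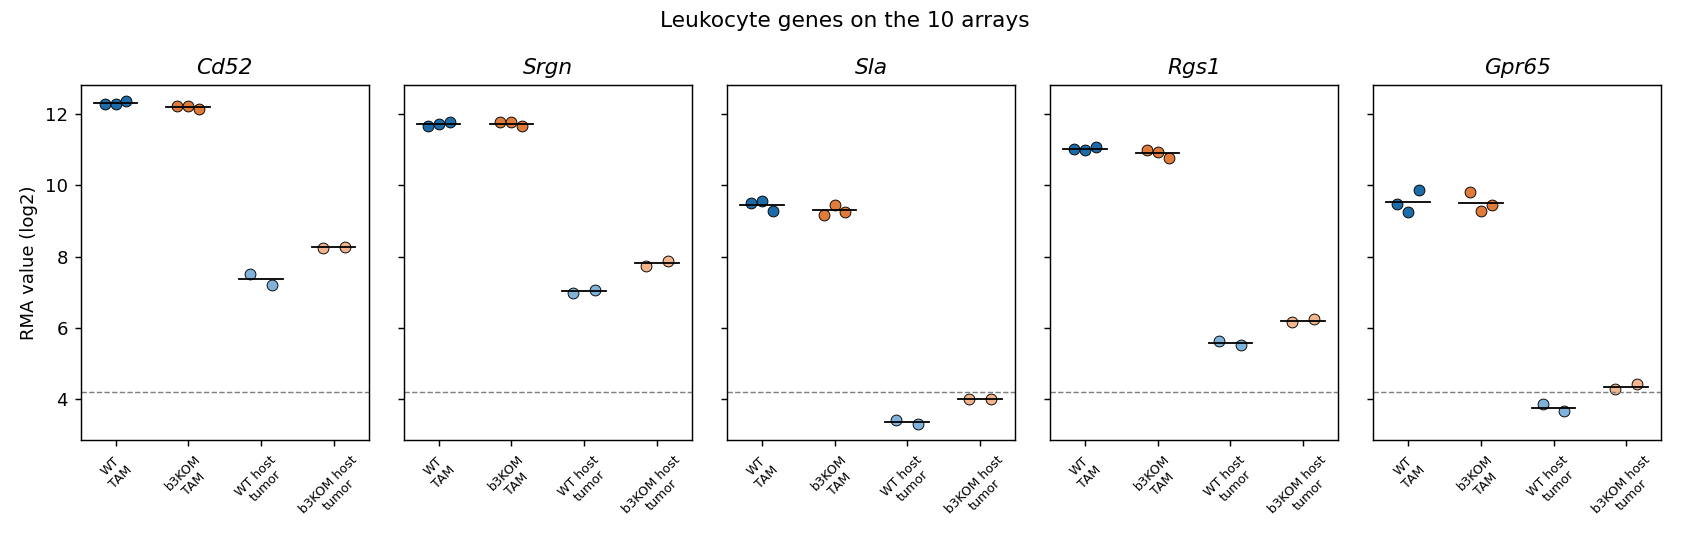
RMA values (log2, vertical axis) of the 5 genes on the 10 arrays, by group. Points are arrays, bars are group means and the dashed line is the median of the value table at 4.19. Each gene is far higher in TAMs, and the tumor cell arrays from b3KOM hosts all lie above those from WT hosts.

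The surface glycoprotein gene Cd52 was bright and steady in TAMs. It measured 12.29, 12.30 and 12.37 on the WT TAM arrays and 12.23, 12.24 and 12.14 on the b3KOM TAM arrays. On tumor cell arrays it measured 7.52 and 7.21 with WT hosts and 8.25 and 8.28 with b3KOM hosts. The genotypes did not overlap in either population, and they lay in opposite order, b3KOM below WT in TAMs and above it in tumor cells. The difference between TAMs and tumor cells was 4.45 ± 0.076 (SE) log2 units, and 1.16% of tested probesets had a larger one.

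Srgn measured 11.67, 11.74 and 11.80 on the WT TAM arrays and 11.77, 11.78 and 11.66 on the b3KOM TAM arrays. It measured 6.98 and 7.07 in tumor cells from WT hosts and 7.75 and 7.87 in tumor cells from b3KOM hosts. The TAM groups interleaved and the tumor cell groups did not. Srgn was 4.32 ± 0.065 (SE) log2 units higher in TAMs, the smallest gap of the set.

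The adaptor gene Sla measured 9.50, 9.56 and 9.28 on the WT TAM arrays and 9.16, 9.46 and 9.27 on the b3KOM TAM arrays. In tumor cells it measured 3.42 and 3.29 with WT hosts and 3.99 and 3.98 with b3KOM hosts. All 4 tumor cell arrays were below the table median of 4.19, so Sla passed the filter on dim probesets only through TAMs, and its gap of 5.70 ± 0.088 (SE) log2 units is taken against a level near background and is no exact size. Its TAM groups overlapped and its tumor cell groups did not.

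Rgs1 measured 11.03, 10.99 and 11.07 on the WT TAM arrays and 10.99, 10.94 and 10.78 on the b3KOM TAM arrays. In tumor cells it measured 5.61 and 5.51 with WT hosts and 6.16 and 6.24 with b3KOM hosts. Like Cd52, it did not overlap between genotypes in either population, with b3KOM higher in tumor cells and lower in TAMs. In TAMs that separation was very small, from 10.990 on the highest b3KOM array to 10.991 on the lowest WT array. Its gap between populations was 5.08 ± 0.068 (SE) log2 units, or 33.9-fold.

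The proton-sensing receptor gene Gpr65 varied most between TAM arrays. It measured 9.48, 9.26 and 9.88 on the WT TAM arrays and 9.83, 9.28 and 9.45 on the b3KOM TAM arrays, which interleaved. In tumor cells it measured 3.84 and 3.65 with WT hosts, below the table median, and 4.27 and 4.42 with b3KOM hosts, just above it. Its gap of 5.48 ± 0.15 (SE) log2 units is thus also taken against a level near background.

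**Figure D2:**
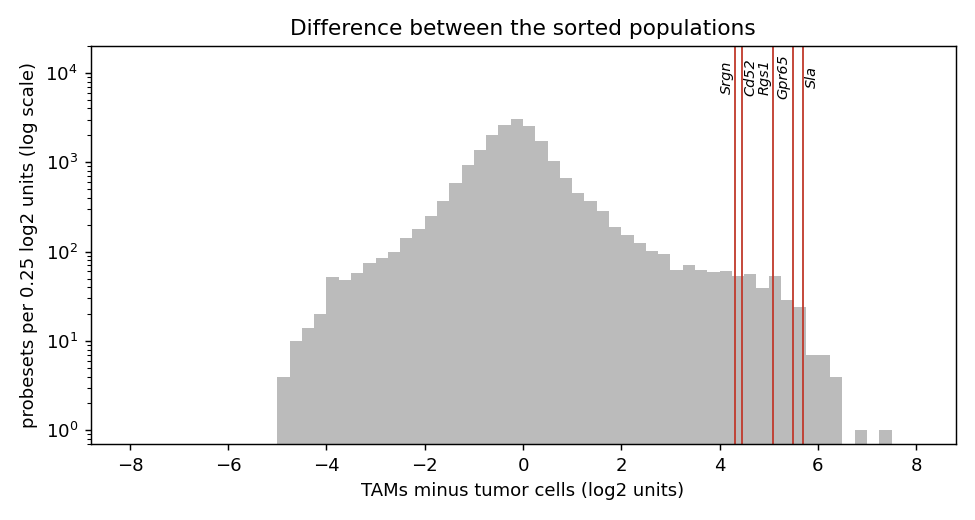
Number of probesets (log scale, bins of 0.25 log2 units) by the difference of TAMs minus tumor cells, over the 20246 probesets tested. Red lines mark the 5 genes, which all lie between 4.32 and 5.70 in the upper tail.

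On a linear scale the tumor cell values were a few percent of the TAM values from the same host genotype. With WT hosts the tumor cell mean was 3.82% of the TAM mean for Srgn, 3.23% for Cd52 and 2.26% for Rgs1. With b3KOM hosts it was 6.56%, 6.50% and 3.84% in the same order of genes. No share is given for Gpr65 and Sla, whose tumor cell values lay near or below the table median. The gap between populations for Srgn, Cd52 and Rgs1 was accordingly 4.71 to 5.46 log2 units with WT hosts and 3.93 to 4.70 with b3KOM hosts. In sorted bulk samples such as these, fewer cells of a type and less RNA per cell cannot be told apart.

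The next comparison asks whether loss of integrin beta3 alters these genes in the TAMs themselves. The authors head each of their lists as unique to its population, and how that was decided was not stated in the sources used here. Genes that also differed in TAMs may have been left out, so a lack of difference there may be partly set by the choice. None of the 5 passed in limma, with adjusted p from 0.858 to 0.999, and 0 had an unadjusted p under 0.05. Over all probesets 0.0148% were called after adjustment and 6.42% had an unadjusted p under 0.05. The log2 differences of b3KOM minus WT were -0.15 ± 0.11 (SE) for Sla, -0.13 ± 0.086 for Rgs1, -0.12 ± 0.096 for Cd52, -0.02 ± 0.19 for Gpr65 and 0.002 ± 0.082 for Srgn. Of the 5, 4 were below 0, beside 48.3% of all probesets tested.

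The precision of these differences limits what could be missed. The 95% interval of the b3KOM to WT ratio ran from 0.879 to 1.14 for Srgn, from 0.800 to 1.05 for Rgs1, from 0.792 to 1.08 for Cd52 and from 0.757 to 1.08 for Sla. For Gpr65 it was wider, from 0.732 to 1.33. A p that misses the threshold does not show that the genotypes are alike, and these intervals give the sizes the arrays leave possible. The intervals use a spread shared with the tumor cell arrays. On TAM arrays alone the SE was larger for Gpr65 (0.21), Sla (0.13), Rgs1 (0.099) and Srgn (0.093) and smaller for Cd52 (0.089). Arrays of the genotypes did not overlap for 2 of the 5 genes, Cd52 and Rgs1, beside 8.8% of all probesets in either direction.

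TAM replicates of 1 genotype agreed closely for most of the set. The SD over the 3 arrays was 0.039 to 0.14 in WT TAMs and 0.055 to 0.15 in b3KOM TAMs for Cd52, Srgn, Sla and Rgs1, below the median SD of all probesets tested (0.17 in each group). Gpr65 was the exception, with an SD of 0.31 in WT and 0.28 in b3KOM TAMs. On the array where Gpr65 was highest in its group, WT replicate 3 and b3KOM replicate 1, Sla was the lowest of its group. This pairing was noticed after the values were seen, over 6 arrays, and was given no test.

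In tumor cells, the comparison on which the genes were chosen, all 5 had higher values with b3KOM hosts and none overlapped between hosts. As 17.2% of all probesets tested also had every b3KOM array above every WT array here, and the genes were chosen on this contrast, nothing is read from that count. Limma called 0.00988% of the probesets in this contrast. The log2 difference of b3KOM minus WT was 0.90 ± 0.12 (SE) for Cd52 and 0.78 ± 0.10 for Srgn, 1.86-fold and 1.72-fold. It was 0.64 ± 0.11 for Rgs1, or 1.55-fold. For Sla and Gpr65, near background in tumor cells, it was 0.63 ± 0.14 and 0.59 ± 0.23, which are no exact sizes. The separation between the lowest b3KOM and the highest WT array was 0.72 for Cd52 and 0.42 for Gpr65, with the other genes between them.

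**Figure D3:**
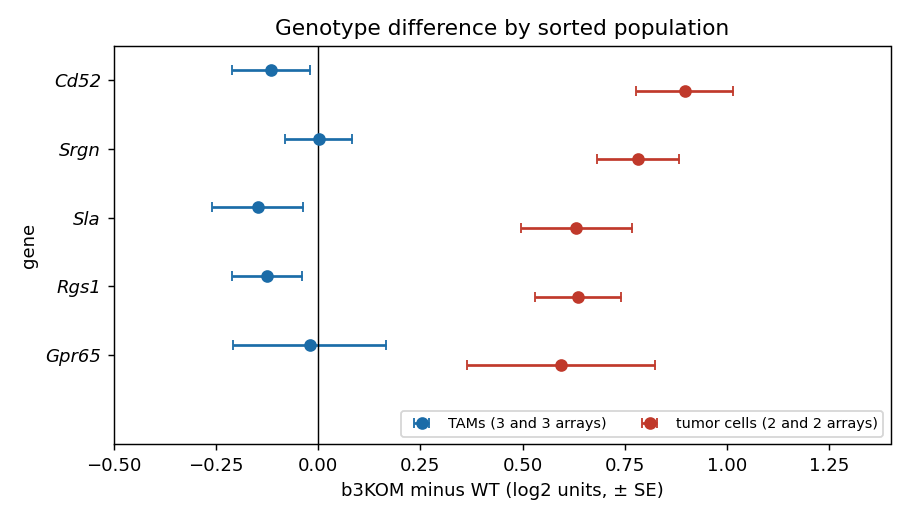
Difference of b3KOM minus WT (log2 units, horizontal axis) for each gene, in TAMs (blue) and tumor cells (red), with bars of ± 1 SE from the fit. In TAMs the points lie between -0.15 and 0.002, in tumor cells between 0.59 and 0.90.

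In the authors' deposited table the log2 fold change of WT against b3KOM was -0.89 for Cd52, -0.78 for Srgn, -0.64 for Rgs1, -0.61 for Sla and -0.58 for Gpr65. With the sign turned, these values of the authors' deposited table were within 0.023 of the differences fitted here. Gpr65 lay closest to the edge of the authors' deposited table, with a p of 0.00808 where the largest p listed was 0.00996, and Srgn had the smallest p of the set at 0.00154. By size, Cd52 was 12th and Gpr65 45th of the 65 rows with higher values in b3KOM in the authors' deposited table.

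The genotype difference in TAMs minus that in tumor cells was -1.01 ± 0.15 (SE) log2 units for Cd52, -0.78 ± 0.13 for Srgn, -0.78 ± 0.18 for Sla, -0.76 ± 0.14 for Rgs1 and -0.61 ± 0.30 for Gpr65. These values contain the contrast that chose the genes and are given with no test. For each gene the order of the groups was the same on the tumor side, b3KOM hosts above WT hosts, with both TAM groups above them and not separated from each other by the fit.

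Macrophage markers had higher values alongside the set on the tumor cell arrays from b3KOM hosts. The 15 named markers all come from the authors' tumor cell table, so like the 5 genes they were chosen on this contrast and their values here are a description. They had a mean level of 6.77 and 6.70 on the WT host tumor cell arrays and 7.29 and 7.42 on those of b3KOM hosts, and their summed linear level was 2369 to 2458 and 3608 to 3966. All 15 were higher with b3KOM hosts, by 0.45 (Csf1r) to 0.88 (Tyrobp) log2 units with a median of 0.63. The lowest marker value on a tumor cell array was 4.45, just above the table median of 4.19. In TAMs their mean level was 11.71 to 11.79 over the 6 arrays, and their summed linear level 58880 to 60920 in WT and 58740 to 61120 in b3KOM. All 15 were called higher in TAMs than in tumor cells, beside 24.9% of all probesets tested. The dendritic cell list was named through 4 MHC class II presentation genes (H2-Aa, H2-Ab1, H2-Eb1 and Cd74), which macrophages also express and which were chosen in the same table. Their mean level was 6.08 and 6.09 on the WT host tumor cell arrays and 7.10 and 7.22 on those of b3KOM hosts, and their summed linear level 293 to 304 and 602 to 641. With b3KOM hosts all 4 had higher values, the median being 1.07 log2 units. In TAMs their mean level was 11.16 to 11.59 in WT and 10.85 to 11.47 in b3KOM. The median difference was -0.17, with 0 of 4 called beside 0.0148% of all probesets tested. All 4 were called higher in TAMs than in tumor cells, beside 24.9% of all probesets tested. The platelet list was named only through Pf4, given below. The part of these markers in the result for Cd52, Srgn, Sla, Rgs1 and Gpr65 was not tested.

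The mean of the 5 genes lay close to the marker mean on each tumor cell array. Genes and markers were all chosen on the host difference in these same arrays. That choice set their shared direction, so nothing is read from the likeness. Relative to the mean of the 4 tumor cell arrays, the markers stood at -0.28 and -0.34 with WT hosts and at 0.25 and 0.37 with b3KOM hosts. The mean of the 5 genes stood at -0.29 and -0.42, and at 0.32 and 0.39, on the same arrays. Cd52 departed most, reaching -0.61 on WT replicate 2.

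**Figure D4:**
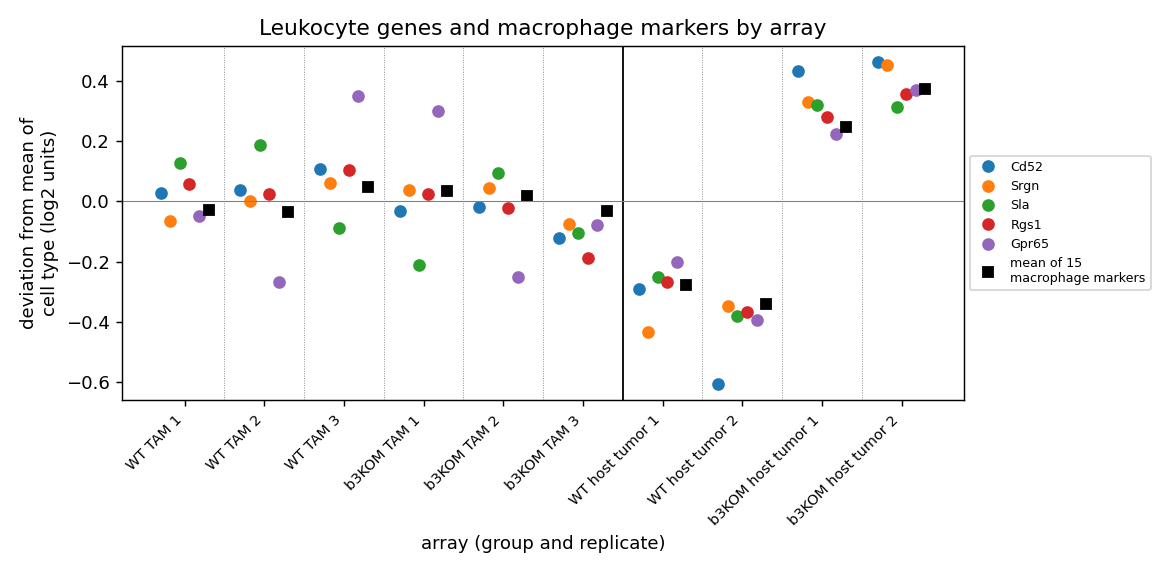
Deviation of each gene (circles) and of the mean of 15 macrophage markers (black squares) from the mean of its own population (log2 units, vertical axis) on each array. On TAM arrays the marker mean stays within 0.05 of 0. On tumor cell arrays genes and markers, all chosen on this host difference, are negative with WT hosts and positive with b3KOM hosts.

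The set could also be placed among related genes through lists of its pathways. The RGS family, the proton-sensing receptors and the small leukocyte surface glycoproteins had no named member other than Rgs1, Gpr65 and Cd52. Of 38 adaptor and immunoreceptor signaling genes, 5 were named beside Sla, namely Fcgr3, Fcer1g, Laptm5, Tyrobp and Itgam. All 5 were called higher in TAMs than in tumor cells, beside 24.9% of all probesets tested, with a median of 5.11 log2 units. They were chosen on the tumor cell contrast, where as a description all 5 had higher values with b3KOM hosts, with a median of 0.63.

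Of 34 granule and secretory genes, 3 were named beside Srgn, namely Lyz2 (a lysozyme), Ctss (the protease cathepsin S) and Pf4 (a platelet and macrophage chemokine). All 3 were called higher in TAMs, beside 24.9% of all probesets tested, with a median of 3.90 log2 units. In tumor cells, the contrast they were chosen on, Pf4 differed by 1.17 ± 0.10 (SE), Ctss by 0.69 ± 0.099 and Lyz2 by 0.58 ± 0.10 log2 units between hosts, given as a description with no test.

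Of 32 other leukocyte G protein-coupled receptors, 5 were named, and they were split. Cxcr4, C3ar1 and Ccr2, receptors for a chemokine, a complement fragment and monocyte chemokines, had higher values in TAMs, by 5.03 to 5.30 log2 units. Over all probesets tested 24.9% were called higher. Cxcr3 had lower values in TAMs, by -0.86 ± 0.12 (SE), beside 8333 of the 20246 probesets called lower, and F2rl3 was not called. The lowest receptor of the list lay at 3.10 to 3.92 on tumor cell arrays and 3.51 to 4.23 on TAM arrays. These levels are near or below the table median of 4.19, so differences in this list are no exact sizes. A gene of this list may have entered the test only through the population where it was higher. No call between populations is therefore counted for this list. In tumor cells Cxcr4, C3ar1 and Ccr2 had differences of 0.66 to 0.85 and Cxcr3 and F2rl3 of -0.66 and -0.82, again on the contrast that chose them. In TAMs 0 genes of these 3 lists passed between genotypes, beside 0.0148% of all probesets tested, so nothing is read from that count. 

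The named genes most like each member were found by the root mean square difference between log2 profiles over the 10 arrays, each profile centred on its own mean, among 185 named genes outside the set. The nearest to Rgs1 were Fcgr3, an Fc receptor, at 0.059 log2 units, C1qb at 0.079 and Cd68 at 0.094. Srgn lay nearest to Tyrobp, an adaptor of myeloid receptors, at 0.072, and then to Bcl2a1b at 0.11 and Mpeg1 at 0.15. Cd52 was also nearest to Tyrobp, at 0.11, followed by C1qc at 0.13 and Mpeg1 at 0.17.

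Sla was nearest to Csf1r, a growth factor receptor of macrophages, at 0.12, then to Unc93b1 and Laptm5, both at 0.16. Gpr65 had the least close match, Itgam at 0.17, followed by Sirpb1a at 0.19 and Unc93b1 at 0.21. Within the set the closest pair was Cd52 and Srgn at 0.13 and the farthest Srgn and Sla at 0.69. The measure is dominated by the size of the gap between TAMs and tumor cells, so it orders genes mainly by that gap.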

How the data were processed

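RNA from sorted cells (50 ng, per the labels' protocols) was amplified and hybridised to Affymetrix arrays. The log2 values deposited by the authors come from RMA run in Expression Console by Affymetrix, per the submitters' processing notes, with versions, array model and genome build not given in the sources used here. Per the file headers, the authors' deposited tables (122 TAM and 130 tumor cell rows) hold per row the log fold change (WT against b3KOM, read as log2), the p-value (read as unadjusted) and a t score. Array medians ran from 4.13 to 4.22. The number of arrays limits the precision.

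The values were fitted with limma 3.58.1 in R 4.3.3 (lmFit and eBayes, 4 group means, all 10 arrays) over the 20246 probesets above the table median of 4.19 on at least 2 arrays. Benjamini-Hochberg adjustment ran over all probesets of a contrast, and an adjusted p under 0.05 was a call. The fit was tested on simulated data. Alternatives were cyclic loess, no filter, a filter of at least 6 arrays, an intensity trend with robust fitting, array weights, 1 population or host alone, and leaving out each array.

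All 5 genes matched a RefSeq symbol, and sequences are from RefSeq. The members, lists and tests were chosen with earlier results of these data known. Named genes were the 5 members, the 3 nearest named genes of each, and up to 3 genes per list by smallest p in TAMs. Lists with up to 5 named genes are given whole, a choice made after their values were seen. T cell, NK cell, B cell, neutrophil, mast cell, epithelial, fibroblast and endothelial lists had 0 named genes, the dendritic cell list 4 (MHC class II genes) and the platelet list 1 (Pf4). The 5 genes could not be set against the 8 cell types with 0 named genes.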

Additional observations from a re-analysis of the deposited data

Results flagged for a closer look

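Cd52 and Rgs1 had their genotypes in opposite order in the sorted populations. Every b3KOM array lay below every WT array in TAMs and above every WT array in tumor cells. For Rgs1 the TAM groups nearly touched, at 10.990 on the highest b3KOM array and 10.991 on the lowest WT array. In tumor cells 17.2% of all probesets tested had every b3KOM array above every WT array, and both genes were chosen there. The TAM difference minus the tumor cell difference was -1.01 log2 units for Cd52 and -0.76 for Rgs1. These differences were not tested, since both genes were chosen on the tumor cell contrast. In TAMs neither gene passed in limma (adjusted p of 0.898 and 0.858), and 8.8% of all probesets had genotypes that did not overlap there.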

How the results depend on the processing

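The difference between TAMs and tumor cells kept its direction for Srgn, Cd52, Rgs1 and Gpr65 under every alternative run, with log2 differences from 3.93 to 5.79. Srgn, Cd52 and Rgs1 also kept their calls. In tumor cells Gpr65 lay above the table median only on the b3KOM host arrays. With the filter of at least 6 arrays, or without either of those b3KOM host arrays, Gpr65 entered the fit only through TAMs. Its calls in those settings are not counted. Sla, which enters the filtered fits through TAMs only, ran from 5.31 to 6.09. The number of probesets called was 13383, and 12048 to 13251 without 1 array. With cyclic loess the median difference of all probesets moved from -0.14 to 0.04, and the calls from 5050 higher and 8333 lower to 6778 and 6307. In TAMs none of the 5 genes passed between genotypes under any alternative run (80 values, adjusted p from 0.695 to 1). Of these, 8 values changed sign, all for genes near 0. Gpr65 was 0.038 with array weights and -0.18 to 0.15 without 1 array. Srgn was -0.0125 with cyclic loess and -0.030 to 0.041 without 1 array. The probesets called in TAMs numbered 3, against 9 with the intensity trend, 8 with the stricter filter, 0 on TAM arrays alone and 0 to 5 without 1 array. In tumor cells the differences of the 5 genes ran from 0.50 to 1.05 without 1 array, with Cd52 at 0.74 or 1.05 when a WT tumor cell array was left out. With 2 arrays per group, chosen on this contrast, this says nothing about stability. Calls over all probesets there numbered 2, against 30 with array weights, 17 with the intensity trend, 0 without the filter, 0 in a fit of tumor cell arrays only and 0 to 2 without 1 array. Where a tumor cell group is left with 1 array, that array is assumed to vary like the other groups. Sla has no value on tumor cell arrays alone, since it lies below the filter there. The cause of these changes was not tested. No paired analysis was possible because the labels give no replicate numbers shared between groups. Signal near background limits Sla and Gpr65 in tumor cells.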
